A study of Mus musculus with 6 samples.

Results

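The genes described here are 42 markers of brain blood vessels, measured in the ventral hippocampus of mice with NEGR1 overexpression and of control mice. They were chosen by symbol as markers of vascular cell types, with earlier results of these data known: 26 mark endothelial cells and 16 mark mural cells, the pericytes and smooth muscle cells that wrap the endothelial tube. All 42 symbols matched 1 Ensembl identifier each among the 56941 in the table, and 41 had enough counts to be among the 19354 genes tested. Tagln was the member left out by the filter on low counts.

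Poly(A) RNA was sequenced from 3 mice labelled NEGR1 overexpression and 3 mice labelled NEGR1 control, 1 library per mouse. Both groups are described as ventral hippocampus, the part of the hippocampus tied to emotional behaviour. NEGR1 is an adhesion molecule of neuronal membranes, and the study asked how raised NEGR1 bears on memory and on behaviour that models anxiety and depression. The sources used here do not give strain, age, sex, the means of overexpression, what the control mice received, or whether the brains were flushed of blood.

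Brain endothelial cells form the blood-brain barrier: tight junctions seal the gaps between them, and transporters carry glucose, lipids, hormones and drugs across. Pericytes sit on capillaries within the basement membrane and are held there by PDGF-B signalling from endothelium to its receptor, PDGFRB. Smooth muscle cells form contractile rings on arteries and arterioles, many of which enter the hippocampus from the pial surface, and these arterioles carry a sheath of fibroblasts near the surface.

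Total counts per library ran from 30726110 to 38108394. Values are CPM, a gene's count in proportion to its library's total, after TMM scaling. Means are ± SD over n = 3 libraries per group, and a fold is overexpression over control. Where single libraries are given, the order is replicates 1, 2 and 3, and overexpression precedes control; "against" separates the groups. The replicate mice are separate animals. Negr1 itself (ENSMUSG00000040037) was at 193 ± 6.88 CPM (SD, n = 3) in overexpression and 176 ± 7.28 CPM (SD, n = 3) in control libraries, a 1.09-fold difference that did not pass edgeR's quasi-likelihood test (adjusted p = 0.488). The libraries of the groups did not overlap for Negr1 (exact two-sided permutation test, p = 0.1, the smallest that 3 against 3 allow).

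Some libraries stood apart before any comparison. Overexpression replicate 1 held 805.9 CPM of 14 choroid plexus genes, where the other 5 libraries held 34.9 to 84.6 CPM. Smooth muscle members, fibroblast genes and interferon-induced genes also differed between libraries of 1 group, and their values are given beside the results they touch. In bulk tissue, fewer cells of a type and less RNA per cell cannot be told apart.

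Counts of every member were above 0 in each library, Tagln included. Per kilobase of annotated exon, the highest control level among the members was that of Bsg (basigin, the chaperone of lactate transporters), at 143.9 CPM per kilobase. Vtn, Rgs5 and Slc2a1 came next, at 31.7, 29.5 and 28.1 CPM per kilobase. The control libraries of these 3 genes overlapped, so their order is not resolved. Itm2a followed at 21.8, Ly6c1 at 14.9 and Mfsd2a at 11.2 CPM per kilobase. The lowest tested members were Cnn1 and Des, at 0.344 and 0.418 CPM per kilobase, and Tagln was at 0.102. Bsg and Slc2a1 are also made by neurons and glia, so their levels are not endothelial alone.

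By edgeR's test no single vascular gene differed at the adjusted threshold, which does not show that levels in the groups were equal. In edgeR's quasi-likelihood test with Benjamini-Hochberg adjustment over all genes tested, 0 of 41 members passed an adjusted p of 0.05, where 0.0465% of all tested genes did (0.0258% higher and 0.0207% lower). The smallest adjusted p of a member was 0.381, that of Ocln. At an unadjusted p under 0.05 there were 3 members higher in overexpression, Ocln, Ly6a and Vcam1, and 1 lower, Atp13a5. These are 7.32% and 2.44% of the members, where 9.24% of all tested genes passed by that rule, 4.64% higher and 4.6% lower. DESeq2's Wald test called 1 member, Vcam1, at an adjusted p of 0.0177. By that test 103 of the 35633 genes it fitted passed the threshold, where edgeR's test called 9 of 19354. Libraries of the groups did not overlap for 4 members in the higher direction (Ocln, Ly6a, Vcam1 and Rgs5) and for Atp13a5 in the lower direction, together 12.2% of members. Of all tested genes 15.1% did so, 7.07% higher and 8.07% lower.

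**Figure D1:**
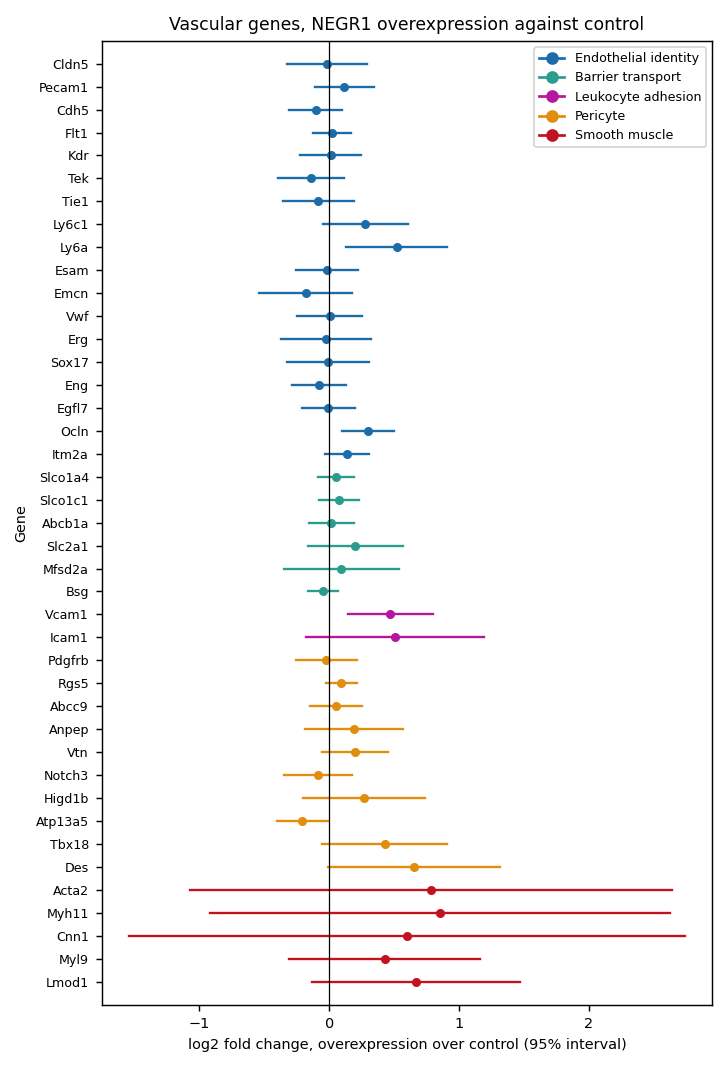
Log2 fold change of overexpression over control (horizontal axis) for the 41 tested members (vertical axis), with 95% intervals from the edgeR fit and colour by cell type group. The interval lies above 0 for Ocln, Ly6a and Vcam1 and below 0 for Atp13a5, none of which passed the adjusted threshold, and the 3 widest intervals are those of Cnn1, Acta2 and Myh11.

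Endothelial genes lay close to 0 as a group, and smooth muscle genes lay farthest from it. The 26 endothelial members had a median log2 fold change of 0.013, with 15 above 0 and 11 below. The 15 tested mural members had a median of 0.26, with 12 above 0 and 3 below. Over all genes tested the median was 0.0015 and 50.4% lay above 0. Within the mural group the 10 pericyte members had a median of 0.14 and the 5 tested smooth muscle members 0.67. The endothelial median changed sign without control replicate 3, to -0.052. Summed over members, endothelial genes held 979 ± 41.1 against 937 ± 51.8 CPM, pericyte genes 308 ± 23.2 against 291 ± 12.1 CPM, and smooth muscle genes 81.8 ± 25.2 against 49.6 ± 33.1 CPM. The groups overlapped on each of these sums.

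**Figure D2:**
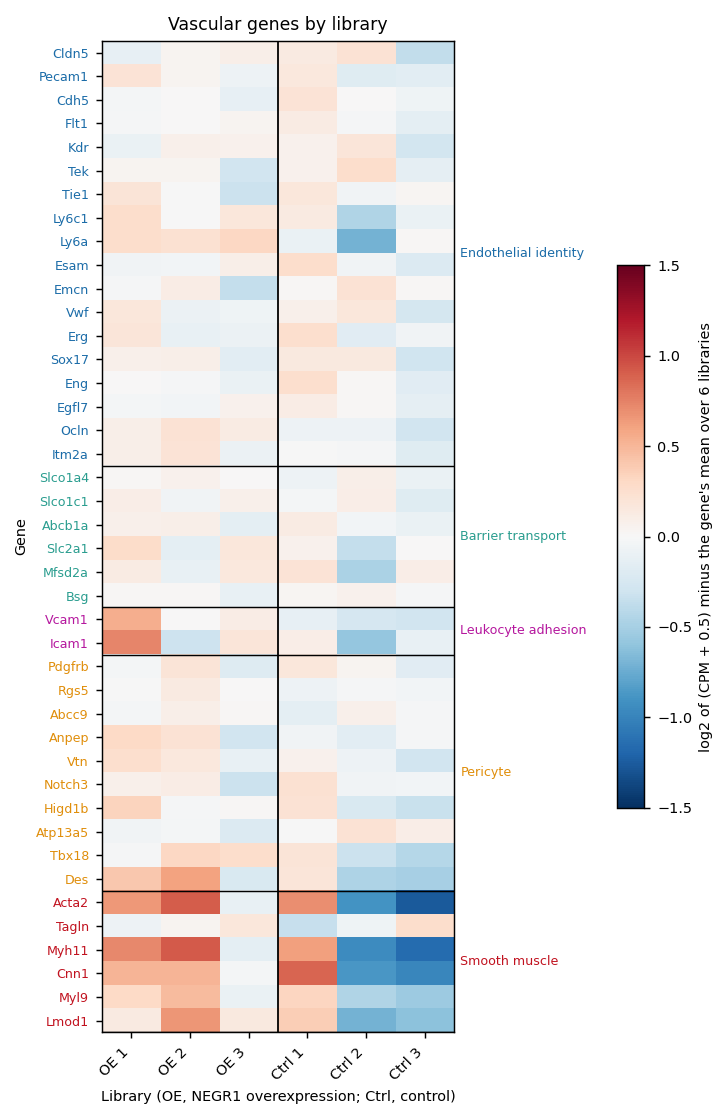
Level of each of the 42 members (rows) in each library (columns), as log2 of CPM + 0.5 minus the gene's mean over the 6 libraries; red is above that mean and blue below. Endothelial and most pericyte rows are pale, while Acta2, Myh11, Cnn1, Myl9 and Lmod1 are blue in control replicates 2 and 3 and red in overexpression replicates 1 and 2 and control replicate 1.

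Junction and adhesion genes of endothelium showed no common shift. Cldn5, the main claudin of the barrier's tight junctions, was at 14.025 ± 1.14 against 14.2 ± 3.03 CPM, a 0.987-fold difference with a 95% interval of 0.796 to 1.22. Cdh5 (VE-cadherin, of the adherens junction) was at 13.6 ± 0.636 against 14.7 ± 1.53 CPM and Pecam1 (CD31) at 23.3 ± 2.41 against 21.5 ± 3.03 CPM. Esam, an adhesion molecule of endothelial contacts, was at 15.6 ± 0.869 against 15.8 ± 2.74 CPM. Emcn, a sialomucin of capillary and venous endothelium, was at 3.97 ± 0.731 against 4.49 ± 0.418 CPM. The groups overlapped for each of these 5 genes.

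Ocln was the member with the smallest p. It encodes occludin, a tight junction protein that is also made by epithelia. It stood at 14.9, 16.3 and 15.2 CPM in overexpression libraries, against 13.1, 13.2 and 11.3 CPM. The lowest overexpression library thus lay above the highest control library. This is a 1.23-fold level (95% interval 1.07 to 1.41, edgeR unadjusted p = 0.00635, adjusted p = 0.381). An exact two-sided permutation test gave p = 0.1, the smallest that 3 libraries against 3 allow. Without overexpression replicate 1, the library rich in choroid plexus genes, the log2 fold change was 0.33, against 0.30 with it. Overexpression replicates 2 and 3 also held such genes, at 59.1 and 84.6 CPM, against 34.9, 61.7 and 38.3 CPM in control libraries. The part of that tissue in the Ocln level was not tested.

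Receptors of vessel growth and quiescence had means that differed by less than the spread between libraries. Flt1 (VEGF receptor 1, a decoy that binds VEGF tightly) was at 90.3 ± 1.98 against 89.03 ± 8.35 CPM, and Kdr (VEGF receptor 2, the main signalling receptor) at 18.2 ± 1.247 against 18.01 ± 2.90 CPM. The 95% interval of the fold was 0.919 to 1.1201 for Flt1 and 0.855 to 1.19 for Kdr. Tek (TIE2, the angiopoietin receptor) was at 15.4 ± 2.01 against 16.9 ± 2.34 CPM and its partner Tie1 at 12.1 ± 2.21 against 12.8 ± 1.06 CPM. Eng (endoglin, a co-receptor for BMP and TGF-beta) was at 22.9 ± 0.836 against 24.2 ± 3.67 CPM. Egfl7, a matrix protein secreted by endothelium, was at 13.7 ± 0.570 against 13.8 ± 1.24 CPM, and Vwf (von Willebrand factor, of clotting) at 30.5 ± 3.19 against 30.4 ± 4.61 CPM. The edgeR adjusted p-values of these 7 genes lay between 0.755 and 0.997.

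The endothelial transcription factors had nearly equal means. Erg, an ETS factor that maintains endothelial identity, was at 4.82 ± 0.633 against 4.90 ± 0.848 CPM. Sox17, an arterial factor, was at 6.80 ± 0.702 against 6.83 ± 1.23 CPM. Itm2a, a membrane protein enriched in brain endothelium, was at 41.9 ± 4.30 against 38.04 ± 2.53 CPM.

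Ly6a and Ly6c1 encode small GPI-anchored surface proteins of mouse endothelium, and both are known to be inducible by interferon. Ly6a stood at 18.9, 18.5 and 19.6 CPM in overexpression libraries, against 14.6, 9.41 and 15.9 CPM. The overexpression libraries agreed closely and lay above all control libraries, while control replicate 2 was far below the other 2. This is a 1.43-fold level (95% interval 1.10 to 1.88, edgeR unadjusted p = 0.0147, adjusted p = 0.427). Without control replicate 2 the log2 fold change was 0.32 in place of 0.52. Ly6c1 was at 32.6, 27.2 and 30.6 against 29.8, 19.7 and 25.3 CPM. Its groups overlapped, with control replicate 1 above overexpression replicate 2 and control replicate 2 again the lowest. The fold was 1.21 (edgeR adjusted p = 0.603). The transcripts of Ly6c1 and Ly6c2 are 97.6% identical over 822 bases, so reads could have been split between them. Ly6c2 had 55 counts in the 6 libraries together.

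Interferon-induced genes had higher means in overexpression, as Ly6a did. All 17 genes of an interferon list were above 0 in log2 fold change, with a median of 0.87. Mx1 and Cxcl9 passed the adjusted threshold (edgeR adjusted p of 0.0159 and 0.0189), as did 0.0465% of all tested genes. The list's mean log2 deviation was 0.067, 0.60 and 0.62 against -0.58, -0.54 and -0.17. Interferon genes were lowest in control replicates 1 and 2, and Ly6a was lowest in control replicate 2. In overexpression replicates 1, 2 and 3 Ly6a was at 18.9, 18.5 and 19.6 CPM. The part of this signal in the Ly6a values was not tested.

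The barrier's transporters gave 0 of 6 members at an unadjusted p under 0.05, a count near the 9.24% of all tested genes. Slco1a4 and Slco1c1 carry bile acids, drugs and thyroid hormone, with Slco1a4 at 49.5 ± 1.15 against 47.6 ± 3.51 CPM and Slco1c1 at 58.6 ± 3.25 against 55.6 ± 5.27 CPM. The efflux pump gene Abcb1a (P-glycoprotein) was at 37.7 ± 3.49 against 37.3 ± 3.07 CPM. Its 95% interval, 0.897 to 1.14 times the control level, was among the narrow ones. Bsg was at 252.9 ± 13.9 against 261 ± 7.49 CPM, with an interval of 0.893 to 1.05. Slc2a1 (GLUT1, the barrier's glucose transporter) and Mfsd2a, which carries lysophospholipids with docosahexaenoic acid and restrains transcytosis, were less even. Slc2a1 was at 126.6, 94.7 and 118 against 109, 81.4 and 105 CPM. Mfsd2a was at 28.04, 23.6 and 28.6 against 29.6, 18.4 and 27.5 CPM. Both genes were lowest in control replicate 2 and lower in overexpression replicate 2 than in the other libraries of that group.

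Both leukocyte adhesion molecules were highest in 1 overexpression library. Vcam1, which binds the integrin of lymphocytes and monocytes, stood at 55.0, 37.5 and 40.5 CPM in overexpression libraries, against 34.2, 31.3 and 30.6 CPM. The groups did not overlap, and the 3 control libraries lay close together. This is a 1.38-fold level (95% interval 1.10 to 1.74, edgeR unadjusted p = 0.0114, adjusted p = 0.419). Overexpression replicate 1 was highest, and without it the log2 fold change was 0.28 in place of 0.47, with an adjusted p of 0.137. That is the library with 805.9 CPM of choroid plexus genes, and the part of that tissue in the Vcam1 level was not tested. Vcam1 is also made by astrocytes and neural stem cells. Icam1, which binds the integrins of neutrophils and T cells, was at 5.70, 2.51 and 3.72 against 3.49, 1.99 and 2.95 CPM. Its groups overlapped (fold 1.42, edgeR adjusted p = 0.662), and again overexpression replicate 1 was highest and control replicate 2 lowest. An antisense gene, Gm47079, overlaps 11.7% of the exon bases of Icam1, and the sources used here do not give the strand setting of the counting.

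**Figure D3:**
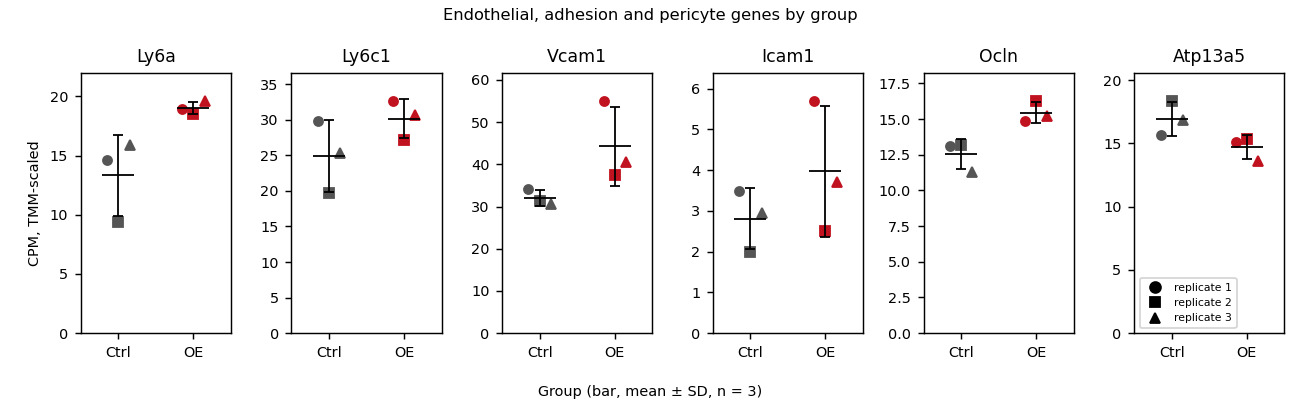
CPM (vertical axis, from 0) of Ly6a, Ly6c1, Vcam1, Icam1, Ocln and Atp13a5 in control (Ctrl) and overexpression (OE) libraries. Each marker is 1 library, with its shape giving the replicate number, and bars are mean ± SD (n = 3); the groups do not overlap for Ly6a, Vcam1, Ocln and Atp13a5 and overlap for Ly6c1 and Icam1.

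Among control mice 0 of 10 pericyte genes differed 2-fold between the highest and lowest library, where 8.1% of all tested genes did, and 3 of 10 differed 1.5-fold, where 19.4% did. Over all 6 libraries their range ran from 1.16-fold for Rgs5 to 2.60-fold for Des. Rgs5, a brake on G-protein signalling, stood at 138, 152 and 139 CPM in overexpression libraries, against 131, 137 and 134.5 CPM. The groups did not overlap, yet the level was only 1.07-fold (95% interval 0.980 to 1.16, edgeR adjusted p = 0.652). Pdgfrb was at 28.9 ± 3.92 against 29.3 ± 3.47 CPM. Abcc9, a subunit of the ATP-sensitive potassium channel of pericytes, was at 14.6 ± 0.656 against 14.03 ± 1.15 CPM. Notch3, the receptor that maintains mural cells, was at 20.6 ± 3.29 against 21.9 ± 2.48 CPM. An antisense gene, Gm17276, overlaps 6.03% of the exon bases of Notch3.

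Atp13a5, a transporting ATPase used as a marker of brain pericytes, was the member lower in overexpression at an unadjusted p under 0.05. It stood at 15.1, 15.4 and 13.6 CPM in overexpression libraries, against 15.6, 18.4 and 16.9 CPM. The groups did not overlap, by a margin of less than 1 CPM. This is a 0.866-fold level (95% interval 0.757 to 0.992, edgeR unadjusted p = 0.0396, adjusted p = 0.512). Without control replicate 2 its log2 fold change was -0.15 in place of -0.21.

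The remaining pericyte members were higher on average in overexpression, with groups that overlapped. Vtn (vitronectin, made by pericytes and other cells) was at 73.8 ± 9.45 against 64.3 ± 7.68 CPM, Anpep (aminopeptidase N) at 4.81 ± 1.10 against 4.22 ± 0.226 CPM and Higd1b, a mitochondrial protein, at 2.66 ± 0.439 against 2.21 ± 0.572 CPM. Tbx18, a transcription factor of mural cells, was at 2.36, 3.07 and 2.97 against 2.80, 1.81 and 1.64 CPM. An unspliced gene model on the other strand, D030062O11Rik, overlaps 20.6% of its exon bases. Des (desmin, an intermediate filament of mural cells that contract) was at 2.68, 3.16 and 1.55 against 2.24, 1.25 and 1.21 CPM, with a fold of 1.57 and an adjusted p of 0.542 in edgeR's test. In both Tbx18 and Des the lowest libraries were control replicates 2 and 3, which were also lowest in smooth muscle genes.

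Smooth muscle genes varied from mouse to mouse more than any other group of members. Acta2 (alpha smooth muscle actin) stood at 29.8, 35.8 and 17.4 CPM in overexpression libraries, against 30.8, 9.87 and 7.57 CPM. Control replicate 1 was close to overexpression replicate 1, while control replicates 2 and 3 were the lowest libraries and overexpression replicate 3 was between. Myh11, the smooth muscle myosin heavy chain, was likewise high in control replicate 1 and lowest in control replicates 2 and 3, at 37.5, 42.95 and 20.3 against 34.7, 11.5 and 9.84 CPM. Cnn1 (calponin, which binds actin and slows myosin) was at 1.64, 1.64 and 0.971 against 2.24, 0.319 and 0.262 CPM. Control replicate 1 was its highest library and held 7.71 times the mean of control replicates 2 and 3. Myl9, the regulatory light chain of smooth muscle myosin, was at 15.9, 17.98 and 11.9 against 16.1, 9.26 and 8.66 CPM. Lmod1 (leiomodin 1, which nucleates actin filaments in smooth muscle) was at 3.16, 4.77 and 3.19 against 3.80, 1.54 and 1.67 CPM.

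**Figure D4:**
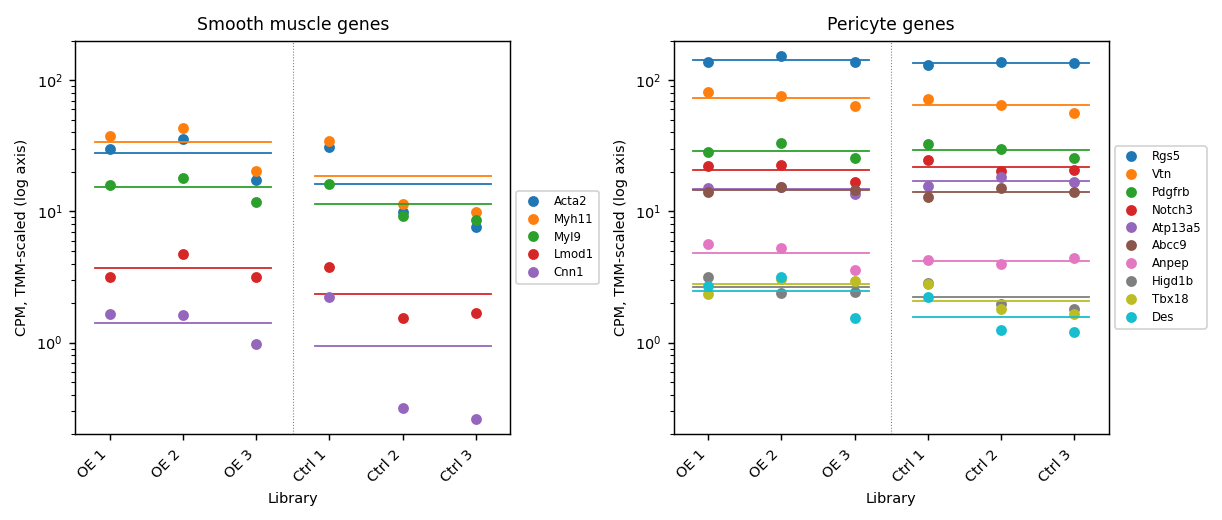
CPM on a log axis of 5 smooth muscle genes (left) and all 10 pericyte genes (right) in each library; points are libraries and horizontal lines are group means. Each of the smooth muscle genes is lowest in control replicates 2 and 3 and high in control replicate 1, while the highest library of a pericyte gene is 1.16 to 2.60 times its lowest, with Des the widest.

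None of the smooth muscle genes passed the test with all libraries. The fold was 1.72 for Acta2, 1.80 for Myh11, 1.51 for Cnn1, 1.35 for Myl9 and 1.59 for Lmod1, with edgeR adjusted p-values between 0.609 and 0.879. The 95% interval for Acta2 ran from 0.476 to 6.22, so these libraries cannot tell a lower from a severalfold higher level. Of the omissions of 1 library, that of control replicate 1 moved the difference most. Without it the median log2 fold change of the 5 genes was 1.43 in place of 0.67, and Cnn1 passed edgeR's test (log2 fold change 2.26, adjusted p = 0.0359). In that fit 39 of 19880 genes tested passed. The control libraries kept there held only 0.319 and 0.262 CPM of Cnn1. The other 4 smooth muscle genes did not pass without control replicate 1, with adjusted p-values of 0.592 for Acta2, 0.617 for Myh11, 0.103 for Myl9 and 0.073 for Lmod1. Without control replicate 2 or 3 the median was 0.36 or 0.45, and without overexpression replicate 1, 2 or 3 it was 0.60, 0.46 or 0.81. With all libraries it was 0.95 with the replicate number as a block and 0.99 with limma-voom.

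Within the control group alone, 3 of the 5 tested smooth muscle genes differed at least 3-fold between the highest and the lowest library, as did 2.49% of all genes tested. The pericyte and endothelial members had 0 genes with that range. Summed, smooth muscle genes came to 28.2, 31.4 and 19.1% of the pericyte sum, against 29.2, 11.1 and 10.2%. The sums of smooth muscle and pericyte genes thus did not vary in proportion. These are RNA levels, and numbers of cells were not measured.

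Fibroblast and meningeal genes, of the tissue around pial arteries, gave 9 of 15 (60%) higher at an unadjusted p under 0.05. Of all tested genes 4.64% were. Past the adjusted threshold there were 0 of the 15, where 0.0465% of all tested genes passed. The fibroblast list was also lowest in control replicates 2 and 3. The mean log2 deviation of 15 such genes was 0.46, 0.36 and 0.033 against 0.086, -0.48 and -0.47. For the smooth muscle genes it was 0.46, 0.69 and -0.048 against 0.57, -0.77 and -0.91. Col1a2, a fibrillar collagen chain, was at 24.3, 24.5 and 18.8 against 15.3, 10.9 and 9.67 CPM, and Col1a1 had the smallest p of that list (edgeR adjusted p = 0.189). The summed level of the 16 listed fibroblast genes ran from 239 to 314 CPM in overexpression and from 186 to 258 CPM in control libraries. How much of the smooth muscle values comes with such tissue was not tested.

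**Figure D5:**
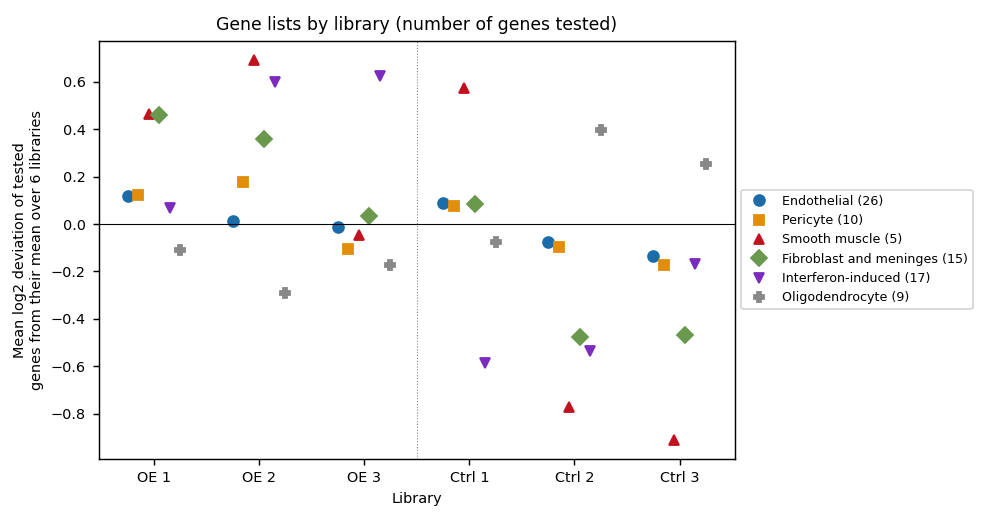
Mean log2 deviation of the tested genes of 6 lists from each gene's mean over the 6 libraries (vertical axis) in each library (horizontal axis). Endothelial and pericyte lists stay between -0.17 and 0.18, smooth muscle runs from -0.91 to 0.69 with control replicate 1 among the high libraries, and fibroblast genes are lowest in control replicates 2 and 3.

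Smooth muscle contractile genes are known targets of serum response factor and its partner myocardin, which act through a DNA element called the CArG box. A CArG box has 10 bases, CC and GG with 6 positions of A or T between. A CArG-like box is taken here to allow 1 G or C inside. The pattern, though not the letters of each box, is the same on both strands. RefSeq start sites on build GRCm38.p6 gave 36 windows of 250 bases before the start for 30 members (a gene can have several), 4 of them smooth muscle genes with 1 window each. A CArG-like box was found in 2 of these 4 windows (Acta2 and Myl9), in 1 of 8 pericyte windows, in 4 of 18 windows of endothelial identity genes, in 1 of 5 windows of barrier transporters, in 0 of 1 window of adhesion molecules and in 8.59% of all 32851 windows. A strict CArG box was found in 1 of the 4, Myl9, and in 1.47% of all windows. The windows of Acta2 (chr19:34255374-34255623, minus strand), Myl9 (chr2:156775214-156775463, plus strand) and Cnn1 (chr9:22099003-22099252, plus strand) are shown 5′ to 3′ because these genes varied together, with CArG-like boxes in capitals.
Acta2: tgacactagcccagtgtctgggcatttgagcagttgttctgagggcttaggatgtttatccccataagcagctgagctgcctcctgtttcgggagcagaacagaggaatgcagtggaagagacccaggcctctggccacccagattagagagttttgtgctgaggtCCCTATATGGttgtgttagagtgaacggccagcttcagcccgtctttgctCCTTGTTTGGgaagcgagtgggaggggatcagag
Myl9: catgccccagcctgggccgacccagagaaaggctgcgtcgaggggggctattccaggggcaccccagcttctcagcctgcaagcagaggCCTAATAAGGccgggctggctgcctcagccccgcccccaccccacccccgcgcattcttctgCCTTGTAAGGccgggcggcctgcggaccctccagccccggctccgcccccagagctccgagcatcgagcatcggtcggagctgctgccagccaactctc
Cnn1: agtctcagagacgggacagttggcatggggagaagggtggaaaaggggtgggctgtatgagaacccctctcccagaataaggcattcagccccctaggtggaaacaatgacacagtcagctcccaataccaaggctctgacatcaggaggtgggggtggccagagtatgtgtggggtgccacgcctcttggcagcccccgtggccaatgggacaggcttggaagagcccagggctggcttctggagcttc
The boxes of Acta2 began 84 and 34 bases before the start, and those of Myl9 161 and 99 bases before it. Cnn1, whose range between libraries was the widest of the tested members, had no such letters in its window. A match is a description of the sequence and not a measured binding site.

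Tagln, the gene of transgelin and by reputation a strong smooth muscle marker, was almost without counts. It had 25 counts in the 3 overexpression and 20 in the 3 control libraries, and its highest library was control replicate 3, where the other smooth muscle genes were low. In GENCODE M21 an antisense gene, Gm48529, overlaps 62.4% of the exon bases of Tagln, and Pcsk7 overlaps a further stretch on the other strand. Gm48529 had 92 counts in the 6 libraries. The sources used here do not say how reads in shared exons were assigned, so the Tagln value is uncertain and no fold is given.

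Among 24 further pericyte and smooth muscle genes 0 passed the adjusted threshold, while 8 (33.3%) were higher and 0 lower at an unadjusted p under 0.05. Of all tested genes 4.64% were higher and 4.6% lower by that rule. The 24 genes had a median log2 fold change of 0.10, with 18 above 0. Zic1, a transcription factor of pericytes, meninges and thalamus, was at 13.8, 16.4 and 13.98 against 11.3, 10.1 and 8.79 CPM (edgeR adjusted p = 0.149). Synpo2, an actin-binding protein of smooth muscle, was at 11.4, 11.99 and 13.0 against 11.3, 8.22 and 7.71 CPM (adjusted p = 0.401 in edgeR). Both genes had groups that did not overlap. Myocd, the gene of myocardin, was at 0.865, 0.789 and 0.472 against 0.436, 0.213 and 0.361 CPM, named after its values were seen (fold 2.11, edgeR adjusted p = 0.444). It was below 1 CPM in each library, and its bearing on the smooth muscle genes was not tested.

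Ligands and partners of the vascular receptors gave 0 of 29 tested genes past the adjusted threshold, with 2 higher and 1 lower at an unadjusted p under 0.05. These are 6.90% and 3.45% of that list, near the 4.64% and 4.6% of all tested genes. Pdgfb, the endothelial and neuronal ligand of PDGFRB, was at 30.2, 30.9 and 29.8 against 34.5, 35.7 and 34.5 CPM. The groups did not overlap and were tight (fold 0.867, edgeR unadjusted p = 0.00474, adjusted p = 0.352). Hey2, a Notch target of arteries, was at 4.95, 5.44 and 5.52 against 3.92, 3.94 and 4.30 CPM (fold 1.31, edgeR adjusted p = 0.423).

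In the Wnt and Norrin list, the pathway that induces the barrier, 1 of 20 genes (5%) was at an unadjusted p under 0.05. The share of all tested genes was 9.24%. The gene of the Wnt list was Foxc1, a factor of pericytes and meninges, at 7.40, 8.48 and 6.60 against 6.45, 4.28 and 4.52 CPM (fold 1.48, edgeR adjusted p = 0.340). Reck, a co-receptor for WNT7, was at 14.7 ± 1.65 against 12.8 ± 1.28 CPM. Foxc1 shared with the smooth muscle genes that control replicate 1 was well above control replicates 2 and 3.

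Further junction, transporter and vesicle genes had a median log2 fold change of -0.0073 over 24 genes. Tfrc, the transferrin receptor of barrier and neurons, was at 108, 104 and 105 against 118, 139 and 122 CPM (fold 0.835, edgeR unadjusted p = 0.00124, adjusted p = 0.237). Cavin2, a coat protein of caveolae, was at 12.5, 11.2 and 11.2 against 10.7, 8.64 and 9.71 CPM (fold 1.20, edgeR adjusted p = 0.482). Both had groups that did not overlap.

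Among arterial and venous genes 3 of 15 tested (20%) were higher and 1 (6.67%) lower at an unadjusted p under 0.05. Of all tested genes 4.64% were higher and 4.6% lower. Unc5b, a netrin receptor of arterial endothelium and of neurons, was at 23.03, 21.1 and 20.4 against 26.8, 30.6 and 29.5 CPM. It had the smallest p of the vascular lists (fold 0.742, edgeR unadjusted p = 7.13e-05, adjusted p = 0.0862). Nr2f2, a factor of veins and of interneurons, was at 53.8 ± 4.15 against 44.9 ± 5.67 CPM. Of the vascular basement membrane 1 of 15 genes (6.67%) was at an unadjusted p under 0.05, near the 9.24% of all tested genes. It was Nid1 (nidogen 1), at 15.4, 16.2 and 13.3 against 13.02, 10.9 and 8.56 CPM. Itgb1 was at 64.2 ± 3.25 against 59.5 ± 2.27 CPM. Genes of activated endothelium gave 0 of 10 tested at an unadjusted p under 0.05, a count near the 9.24% of all tested genes. In that list Tnfaip3 was at 8.87 ± 0.744 against 9.71 ± 0.4996 CPM and Edn1 (endothelin 1) at 1.36 ± 0.414 against 1.04 ± 0.449 CPM.

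Other cell types were measured beside the vessels. Red blood cell genes, a sign of blood left in vessels, summed to 47.7 to 65.1 CPM in overexpression and 47.6 to 63.8 CPM in control libraries, with Alas2 and Hbb-bt at adjusted p-values of 0.891 and 0.920 in edgeR's test. Microglia and macrophage genes summed to 302 to 369 against 308 to 336 CPM, and the border macrophage genes Mrc1 and Cd163 had the smallest p-values there (edgeR adjusted p of 0.412 and 0.419). Astrocyte genes summed to 5924 to 6482 against 5887 to 6546 CPM, with Gfap at 356 ± 39.9 against 508 ± 37.2 CPM (edgeR adjusted p = 0.0862) and Kcnj10 at 177 ± 17.5 against 194 ± 10.1 CPM. Neuron genes summed to 7281 to 7601 against 7489 to 8061 CPM, with Slc17a7 and Snap25 at edgeR adjusted p-values of 0.515 and 0.658. Of 9 oligodendrocyte genes 7 (77.8%) were lower at an unadjusted p under 0.05, where 4.6% of all tested genes were. The oligodendrocyte list summed to 3048 to 3598 against 3816 to 4808 CPM, with Mbp and Mag leading at edgeR adjusted p-values of 0.1498 and 0.232. The choroid plexus genes Otx2 and Clic6 had edgeR adjusted p-values of 0.473 and 0.489.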

How the data were processed

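The authors deposited 1 table of raw counts (whole numbers) for Ensembl genes, with 1 column for each of the 6 libraries, matched by its name; no other per-sample column was present (0). Poly(A) libraries were strand-specific (dUTP) per the labels' protocols. Trimmomatic 0.36, STAR 2.7.10 and featureCounts 2.0.3 appear, per the submitters' processing notes, with no role given, and so do the builds mm10 and GRCm39. The sources used here do not give the build, annotation release or strand setting of the counting; a wrong strand setting or shared exons would lower counts. Symbols came from a table of gene identifiers, which matched 51948 of 56941.

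The members, lists and tests were chosen with earlier results of these data known. Groups were compared in R 4.3.3 by the robust quasi-likelihood test of edgeR 4.0.16. It used TMM factors, the package's default filter, group as the only term and Benjamini-Hochberg adjustment over all 19354 genes tested. In 1 simulated data set the test missed many of the small changes. It made more false calls there than its threshold allows for on average, and 1 such data set does not settle that rate. Standard errors and 95% intervals come from the F statistic of edgeR's test. Deviations use log2 of CPM + 0.5. Levels per length use exon unions of GENCODE M21; near-identical transcripts were sought with BLAST 2.17.0 (at least 95% identity over 200 bases). Named genes are all members and, of each further list, those past the threshold or else the 2 with the smallest p. Myocd, and single-library values of Acta2, Myh11, Cnn1, Tbx18, Ly6c1 and Mfsd2a, were added after their values were seen. Alternatives were other scaling, DESeq2 1.42.0, limma-voom 3.58.1 with sample weights, other filters, the replicate number as a block, omission of each library in turn and an adjusted p of 0.1. Every 2 libraries differed by more than sampling noise (chi-square per degree of freedom of 4.28 to 12.9).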

Additional observations from a re-analysis of the deposited data

How the results depend on the processing

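The number of all genes past the threshold was 9, and 103 with DESeq2, 304 with no filter on low counts, 5 with at least 1 CPM in 3 libraries, 26 with the replicate block and 19 at an adjusted p of 0.1; leaving out 1 library gave 2 to 63. The causes were not tested. Members past it were 0, but 1 with DESeq2 (Vcam1) and 3 with no filter (Ly6c1, Ly6a and Vcam1); leaving out 1 library gave 0 to 1, the 1 being Cnn1 without control replicate 1. Members higher at an unadjusted p under 0.05 were 3 (7.32%), where 4.64% of all tested genes were. The count was 7 with DESeq2, 11 with no filter and 9 with the replicate block. Leaving out 1 library gave 3 to 13, the highest without control replicate 1. The share of all genes at that rule is not given for the alternatives, so these counts are not read as a result about the members. Members lower were 1, Atp13a5, and 0 with upper-quartile factors, library totals, DESeq2 or limma-voom; leaving out 1 library gave 0 to 1. Leaving out 1 library moved the endothelial median log2 fold change between -0.052 (without control replicate 3) and 0.082 and the mural median between 0.17 and 0.39. The median of the 5 smooth muscle genes was 1.43 without control replicate 1. Over the 15 alternatives 25 members kept the sign of their fold change in each and 16 did not, with 42 of 615 values of the other sign; the largest of those 16 in size had a log2 fold change of 0.094. The replicate numbers do not show a pairing by the correlation of same-numbered deviations (0.017, 0.017 and 0.023), although each library correlated best with its own number, a hint from the data and not the design. Counts below 1 CPM, as in Tagln, Cnn1 and Myocd, limit what can be told at this depth.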
